A study of Mus musculus with 4 samples.

Results

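Basophils are rare circulating granulocytes, and 160 of the 32876 liver immune cells kept from 4 single-cell libraries carried their transcripts. A cell was a barcode with at least 500 unique molecular identifiers (UMIs, each counting 1 captured probe molecule), 250 or more genes and no more than 10% of UMIs from mitochondrial genes. A cell was called a basophil when it held at least 1 UMI of Gata2, at least 2 UMIs of Ms4a2, Mcpt8 and Cd200r3 together, no UMI of Cd3e and at most 1 of Cd79a and Cd79b together. The GS library gave 27 of these cells, the URI library 51, WT replicate 1 gave 51 and WT replicate 2 gave 31. Since measured values of these genes chose the cells, their levels are given as a description with no test.

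The study set CD45+ cells of mouse liver from 2 hepatocyte deletions beside wild type. The GS library came from mice labelled GS(+/delta)Hep, which carry 1 deleted copy of the glutamine synthetase gene in hepatocytes, and the URI library from URI(+/delta)Hep mice, with 1 deleted copy of URI, a prefoldin-family protein encoded by Uri1. WT mice gave the other 2 libraries. All mice, WT included, were on tamoxifen for 1 week, and every library pooled cells of 5 mice. The labels name neither the Cre driver nor the age or sex of the mice. Basophils are not the cells in which the deletions were made, and 1 pool for each deletion leaves no replicate of either. Livers were digested with collagenase at 37 °C, the cells were passed through a Percoll gradient, sorted for CD45, fixed and hybridised to a probe set, so only probed genes were measured.

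Basophils develop from bone marrow progenitors under the transcription factor GATA2 and depend on interleukin 3. They bind IgE through the high-affinity receptor FcεRI, whose alpha and beta chains are encoded by Fcer1a and Ms4a2, and on activation they release histamine, leukotrienes, granule proteases and cytokines such as interleukin 4, interleukin 13 and interleukin 6. In mouse the granule proteases MCPT8 and PRSS34 are characteristic of the cell. Few basophils are present in a resting liver, where they arrive with the blood.

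Total depth was 39451266 UMIs for GS, 51920505 for URI, and 37783065 and 24041049 for the WT replicates. A basophil had a median of 4952 UMIs in GS, 5590 in URI, and 4178 and 3703 in WT, against 4448, 4973, 3763 and 2659 over all kept cells in the same order. WT replicate 2 was thus the shallowest library. Between 41.3% and 44.3% of kept cells in each library carried a droplet barcode that also occurred in another library. Multiplexed probe libraries share droplets. Such barcodes were carried by 13 of 27 GS basophils, 16 of 51 URI basophils, and 19 of 51 and 12 of 31 WT basophils. No full barcode occurred in all 4 libraries at once, and sharing between fewer libraries was not counted. No basophil shared its droplet barcode with a basophil of another library, which says little for so few cells. Levels below are in CPM, the UMIs of a gene per 1000000 UMIs of the cells named. The Y-linked transcript Ddx3y reached 79.6 CPM in the other cells of the GS library, 222 in those of the URI library, 4.80 in WT replicate 1 and 118 in WT replicate 2. Basophils held 5, 24, 0 and 1 UMIs of it. The level of this transcript thus differed between the pools, including the WT pools, and a difference between groups and a difference in the sex of the pooled mice cannot be told apart.

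The label basophil was set beside marker genes. Of the 5 basophil markers, Gata2, Mcpt8 and Cd200r3 chose the cells and say nothing on the label. Of the others, Cyp11a1 stood at 1604 in GS basophils, 1888 in URI basophils, and 2314 and 2271 in WT basophils, against 3.83 to 5.97 CPM in the other cells of a library. Prss34 stood at 491 in GS basophils, 1349.6 in URI basophils, and 1128 and 2764 in WT basophils. In other cells it stood at 0.133 CPM in GS, 11.7 in URI, and 0.781 and 0.0445 in WT. All 5 dendritic cell markers were at 0 in basophils, as were Epx, Prg2, Prg3 and Ear6, which define eosinophils, while Siglecf and Ccr3, which basophils share with eosinophils, were present. The platelet markers Pf4, Ppbp, Gp1bb and Gp9 were also at 0, while Itga2b, the integrin chain CD41 that basophils share with platelets, was present. Neutrophil markers summed to 209.6 to 539.8 CPM in basophils, against 10896 to 14271 in the other cells. Progenitor markers summed to 14.5 CPM in GS basophils, 27.6 in URI basophils, and 8.85 and 121 in WT basophils. In other cells they summed to 4.34, 33.4, 9.45 and 11.8 in the same order. In WT replicate 2 the progenitor marker Mpo had 12 UMIs in 5 of the 31 basophils, and whether progenitors lay among them was not tested. One URI cell stood apart with mast cell transcripts: it held 32 UMIs of Tpsb2, 35 of Tpsab1, 9 of Kit, 4 of Cma1 and 23 of Cpa3, and none of Mcpt8, Hdc or Fcer1a. Cma1, Tpsb2 and Tpsab1 were at 0 in all other basophils, while Cpa3 is shared by mast cells and basophils.

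Near the limits of the rule, 8 basophils had exactly 2 UMIs of Ms4a2, Mcpt8 and Cd200r3, 5 of them with Hdc and 6 with Cyp11a1. Just outside, 8 cells had Gata2 and a sum of 1, and 5 of these held Hdc and 5 held Cyp11a1. A further 49 cells met the basophil limits and failed only on Cd3e or Cd79, 48 with Hdc and 44 with Cyp11a1. These 49 cells also carried basophil transcripts. Scrublet, a doublet caller, marked none of the 160 cells.

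Promoter sequence was set beside the expression of the identity genes because GATA2 was used to choose the cells. Of the 25 genes with the highest ratio of basophils to other cells, 23 were in the RefSeq promoter table (GRCm38.p6), and 6 of them held AGATAA or its reverse complement TTATCT in the 250 bases before the first listed start. The same letters occurred in 9.99% of the 32851 promoters of this length in the table. The 6 promoters below belong to the IgE receptor chains Ms4a2 and Fcer1a, the receptors Cd200r3 and C3ar1, and the granule proteases Prss34 and Cpa3. They are printed 5′ to 3′ on the gene's strand, and capitals mark AGATAA or TTATCT.
Ms4a2 (chr19:11623720-11623969, minus strand): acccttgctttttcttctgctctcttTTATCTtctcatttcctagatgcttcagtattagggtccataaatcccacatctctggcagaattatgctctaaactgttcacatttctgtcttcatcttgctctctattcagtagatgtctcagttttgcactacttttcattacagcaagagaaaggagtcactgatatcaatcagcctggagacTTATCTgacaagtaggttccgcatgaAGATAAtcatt
Fcer1a (chr1:173227230-173227479, minus strand): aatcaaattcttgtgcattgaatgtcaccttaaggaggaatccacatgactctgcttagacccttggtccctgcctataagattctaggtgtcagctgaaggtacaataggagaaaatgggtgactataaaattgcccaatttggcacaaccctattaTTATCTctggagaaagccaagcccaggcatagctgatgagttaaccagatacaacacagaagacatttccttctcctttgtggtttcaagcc
Cd200r3 (chr16:44943428-44943677, plus strand): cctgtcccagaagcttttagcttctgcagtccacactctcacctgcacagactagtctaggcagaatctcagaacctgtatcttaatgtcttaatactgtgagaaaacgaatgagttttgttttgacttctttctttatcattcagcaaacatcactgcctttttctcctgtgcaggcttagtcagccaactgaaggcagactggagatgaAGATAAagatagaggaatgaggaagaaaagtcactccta
C3ar1 (chr6:122856158-122856407, minus strand): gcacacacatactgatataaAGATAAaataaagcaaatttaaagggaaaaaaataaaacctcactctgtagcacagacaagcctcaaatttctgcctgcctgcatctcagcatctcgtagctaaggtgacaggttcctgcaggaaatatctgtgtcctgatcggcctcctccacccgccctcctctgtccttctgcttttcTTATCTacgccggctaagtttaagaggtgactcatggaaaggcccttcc
Prss34 (chr17:25298144-25298393, plus strand): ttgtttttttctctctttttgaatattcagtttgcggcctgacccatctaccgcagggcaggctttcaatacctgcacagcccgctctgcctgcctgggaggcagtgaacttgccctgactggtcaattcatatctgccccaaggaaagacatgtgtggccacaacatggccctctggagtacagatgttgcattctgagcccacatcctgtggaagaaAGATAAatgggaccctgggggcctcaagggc
Cpa3 (chr3:20242182-20242431, minus strand): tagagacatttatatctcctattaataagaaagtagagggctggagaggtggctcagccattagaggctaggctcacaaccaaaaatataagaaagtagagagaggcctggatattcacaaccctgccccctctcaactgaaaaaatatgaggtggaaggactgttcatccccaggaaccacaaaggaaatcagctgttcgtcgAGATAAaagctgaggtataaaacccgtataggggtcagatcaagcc
The Ms4a2 promoter held 3 matches, at 224, 37 and 11 bases before the start, and the C3ar1 promoter held 2. In Cd200r3, Prss34 and Cpa3 the single match lay 39, 31 and 46 bases before the start, and in Fcer1a 92 bases before it. No match was present in this window of Gata2 itself, Mcpt8 or Cyp11a1. A match of letters is a description and not a bound site.

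The Il6 promoter is shown because Il6 was the cytokine most concentrated in basophils. Capitals mark a match to the NF-κB motif, which was searched on both strands and occurred in 1.41% of all promoters of this length and in 3 of the 23 identity genes, Il6, C3ar1 and Ccl9.
Il6 (chr5:30012864-30013113, plus strand): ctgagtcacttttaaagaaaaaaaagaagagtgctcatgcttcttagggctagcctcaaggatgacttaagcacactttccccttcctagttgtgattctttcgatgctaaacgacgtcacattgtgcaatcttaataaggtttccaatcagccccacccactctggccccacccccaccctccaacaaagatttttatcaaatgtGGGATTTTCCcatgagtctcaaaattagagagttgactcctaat
The match lay 44 bases before the start of Il6.

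The 25 identity genes were those with at least 100 CPM in the basophils of every library and the highest ratio to the other kept cells. Levels are CPM of the pooled cells, and a level of 1 probe-measured gene cannot be ranked against that of another. Pooled over libraries, the receptor genes Cd200r3, Ms4a2 and Fcer1a reached 1693 against 2.55, 793 against 1.21 and 659 against 1.01 CPM in basophils against other cells. Cyp11a1, the enzyme that makes pregnenolone from cholesterol, reached 2017 against 4.44. It had a UMI in 26 of 27 basophils of the GS library, 51 of 51 of the URI library, and 51 of 51 and 28 of 31 of the WT libraries. Other enzymes were Alox15, a 12/15-lipoxygenase, at 788 against 1.42, and Npl, a sialic acid lyase, at 163 against 0.42.

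Several identity genes encode receptors and adhesion molecules. C3ar1, the receptor for complement C3a, stood at 428 against 0.964 CPM in basophils against other cells. Csf2rb2, the mouse interleukin 3 receptor beta chain, stood at 1194 against 10.6, Ptger3, a prostaglandin E2 receptor, at 255 against 1.14, and Htr1b, a serotonin receptor, at 135 against 0.248. E-cadherin, encoded by Cdh1, stood at 1015 against 4.46 and Itga2b at 833 against 5.10. Transporters were also among them: Slc7a8, a carrier of neutral amino acids, stood at 687 against 2.82, Slc6a9, a glycine transporter, at 139 against 0.386, and Slc24a3, a sodium, potassium and calcium exchanger, at 320.4 against 1.38. The remaining genes were Mcpt8, Prss34, Gata2, Cpa3, Il6, Hgf, Ccl9, Fam110c, Csrp3 and Igfbp7. All of them were higher in basophils than in other cells of each of the 4 libraries. Their selection by level and ratio largely fixes this, so it is a description only.

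**Figure D1:**
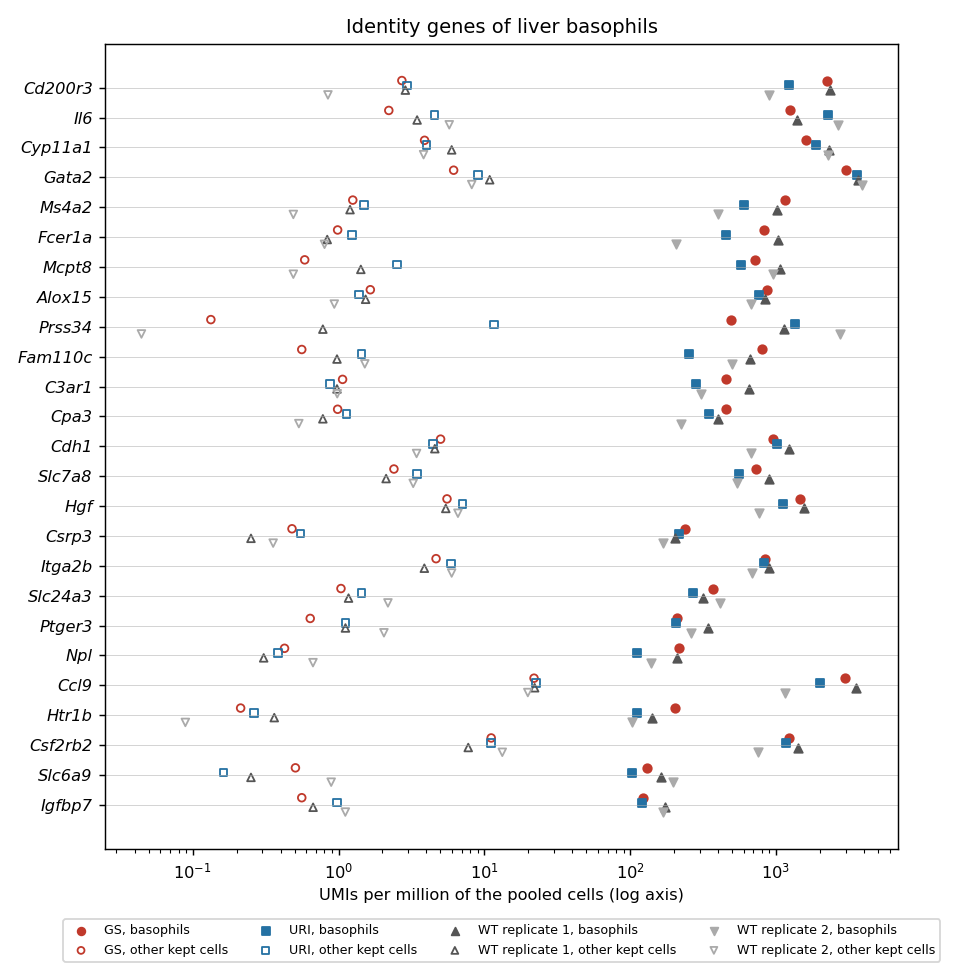
Level of the 25 identity genes (rows) in CPM on a log axis, in basophils (filled) and in all other kept cells (open) of each library. The 4 filled points of each gene lie right of its 4 open points, at 102 or more in basophils and 22.5 or less in other cells. The genes were chosen by this level and by the pooled ratio, which largely fixes the separation.

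Basophils were 0.487% of kept cells and held 0.522% of their UMIs, yet they held much larger shares of several cytokine transcripts. Il6 had 173 UMIs in the 27 GS basophils, 653 in the 51 URI basophils, and 314 and 287 in the 51 and 31 WT basophils. These were 67.6%, 74.5%, 71.7% and 69.0% of all Il6 UMIs in kept cells of the same libraries. With the 49 cells that failed only on Cd3e or Cd79 added, the pooled share was 89.2%. Monocytes, another source of interleukin 6, stood at 15.1 CPM, T cells at 3.96, B cells at 1.92 and neutrophils at 0.34, against 1874 in basophils. T cells were called on Cd3e and B cells on Cd79a and Cd79b, and the 49 cells were not removed from these classes. Their part in the T and B cell levels was not computed.

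Hgf, hepatocyte growth factor, which stimulates hepatocyte growth through the receptor MET, came next by the share pooled over libraries. Its level was 1453 in GS basophils, 1111 in URI basophils, and 1562 and 763 in WT basophils, in CPM of basophils. Basophils held 51.5% of its UMIs over all libraries, with a range of 35.7% in WT replicate 2 to 64.4% in WT replicate 1. Csf1, the growth factor of macrophages, stood at 1409 in GS basophils, 1678 in URI basophils, and 1598 and 2094 in WT basophils, and basophils held 23.9% of its UMIs. For Osm, oncostatin M of the interleukin 6 family, the level was 2833 in GS basophils, 4332 in URI basophils, and 2938 and 2783 in WT basophils, and the share was 14.8%. Stromal and endothelial cells are not selected by a CD45 sort, so these are shares among the sorted cells only.

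The type 2 cytokines were present in part of the cells. A UMI of Il4 was found in 63.0% of GS basophils, 47.1% of URI basophils, and 68.6% and 38.7% of WT basophils, and a UMI of Il13 in 37.0%, 27.5%, 31.4% and 32.3%. With each cell thinned to 1500 UMIs, the Il4 shares were 34.6%, 26.0%, 42.0% and 15.4%, and in T cells thinned alike they were 1.97% to 4.54%. Il6 was detected in 70.4%, 66.7%, 72.5% and 80.6% of basophils, against 0.306% to 0.403% of T cells, whose median depth of 3332 to 5908 UMIs was close to that of basophils. The T cell shares can include cells with basophil transcripts that failed the rule only on Cd3e. Basophils held 34.6% of all Il13 UMIs and 11.6% of all Il4 UMIs in kept cells.

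Chemokine transcripts were in nearly every basophil. Ccl3, which attracts monocytes and granulocytes, had a UMI in each of the 160 cells, at a median of 96 UMIs per cell in GS, 157 in URI, and 55 and 85 in WT. Ccl3 and Ccl4 made up 16643 and 10175 CPM in GS basophils, 28625 and 15636 in URI basophils, 16033 and 10072 in those of WT replicate 1, and 24665 and 16158 in those of WT replicate 2. Basophils held 17.0% of Ccl3, 15.0% of Ccl4, 12.3% of Ccl6 and 37.6% of Ccl9 UMIs. Ccl5, a chemokine of T and NK cells, was the opposite, with 189 CPM in basophils and 3631 in other cells. For Tnf, basophils held 1.25% of the UMIs, from 2 GS, 11 URI, and 10 and 11 WT basophils.

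**Figure D2:**
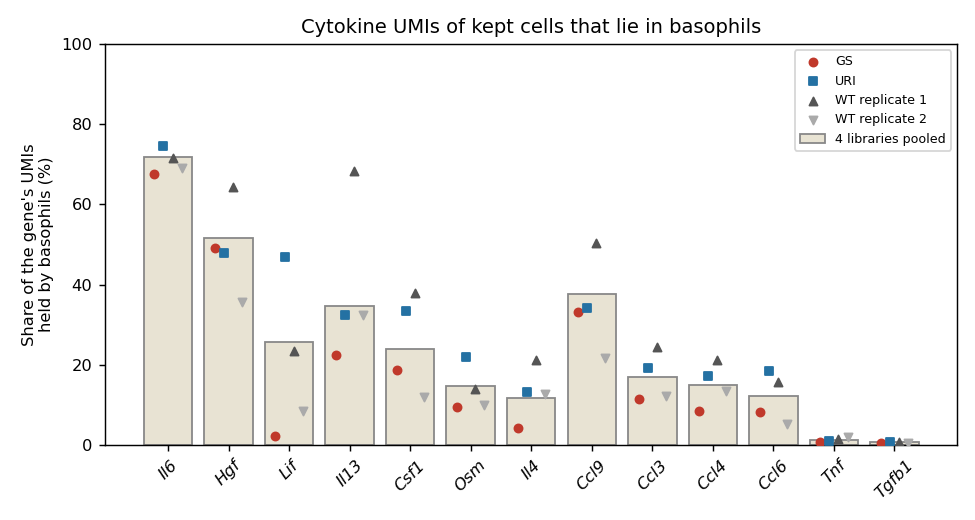
Percentage of each gene's UMIs in kept cells that lay in basophils: bars pool the 4 libraries and points are single libraries. Il6 lies between 67.6% and 74.5% in every library, while the pooled shares of Tnf and Tgfb1 are 1.25% and 0.695%.

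The machinery of histamine and lipid mediators was measured in most basophils. Hdc, histidine decarboxylase, had 2789.5 CPM in GS basophils, 2909.8 in URI basophils, and 3124 and 3788 in WT basophils. Neutrophils also carried Hdc, at 1573, so that basophils held 8.98% of its UMIs. Alox5ap, the activating protein of 5-lipoxygenase, stood at 3079 in GS basophils, 2282 in URI basophils, and 2328 and 2411 in WT basophils. Of the receptor chain for interleukin 33, Il1rl1, the levels were 369 in GS basophils, 214 in URI basophils, and 336 and 93.1 in WT basophils. Cebpa, a transcription factor of granulocyte precursors, stood at 1691 in GS basophils, 1646 in URI basophils, and 2182 and 1703 in WT basophils.

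Of the 6 genes Gata2, Il6, Il13, Mcpt8, Il4 and Prss34, Prss34 was held by the fewest basophils. Other genes were held by fewer: Lif by 1 GS, 5 URI, and 5 and 3 WT basophils, and Cxcl2 by 2, 9, 1 and 9. Prss34 was found in 34 of 160 cells: 8 of 27 in GS, 9 of 51 in URI, and 10 of 51 and 7 of 31 in WT. The highest cell held 27 UMIs in GS, 321 in URI, and 164 and 273 in WT, and 4 cells held 80.6% of all 1011 UMIs. The 4 highest cells held 8.14% of the UMIs of Gata2, 21.7% for Il6, 27.5% for Il13, 28.7% for Mcpt8 and 44.3% for Il4. Gata2 and Mcpt8 were part of the rule that chose the cells, and the rule requires Gata2 in each of them. The summed level of Prss34 in a library therefore rests on 1 or a few cells.

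Cells with Prss34 also held more Mcpt8, which is part of the rule that chose the cells, as is Cd200r3. In CPM computed without Prss34, Mcpt8 stood at 1088 against 513 in GS cells with and without Prss34, 1711 against 307 in URI, and 2798 against 586 and 2612 against 377 in WT. The cell with the most Prss34 held 2 of the 53 Mcpt8 UMIs of these cells in GS, 56 of 94 in URI, and 63 of 135 and 30 of 72 in WT. Without it their Mcpt8 level was 1235 in GS, 841 in URI, and 1653 and 1776 in WT. Alox15, Itga2b, Cd200r3 and Cd63, a membrane protein of granules, were also higher in the cells with Prss34 in 4 of 4 libraries. Cpa3, Fcer1a and Hdc were higher in 2 of 4. These genes were picked for the comparison, and the share of all genes higher in 4 of 4 libraries was not computed. Depth moved with this split, since cells with Prss34 had a median of 6482.5 UMIs in GS, against 4828 in cells without it, and 5756 against 5508, 5207.5 against 4113 and 3719 against 3563 in the URI library and the WT libraries. Its part in the difference was not tested, and cells of 1 library are not replicates.

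**Figure D3:**
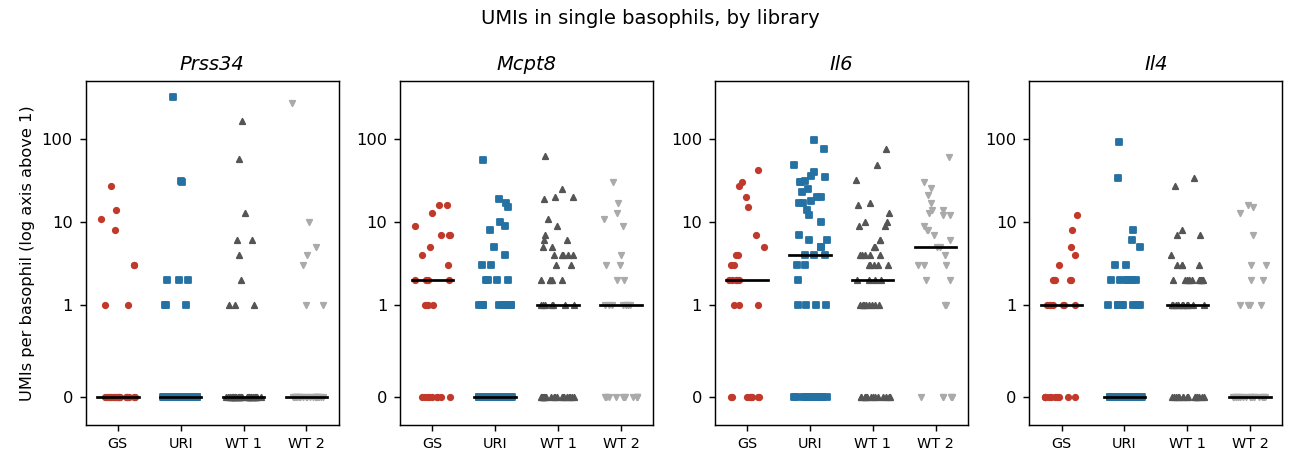
UMIs of Prss34, Mcpt8, Il6 and Il4 in each basophil (points, spread sideways for display) by library, on an axis that is logarithmic above 1, with the median as a line. Prss34 has a median of 0 in every library and single cells at up to 321 UMIs.

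Immediate early genes, which respond within minutes to stimulation and to tissue digestion, took a large part of basophil UMIs and separated the libraries. The list of 28 genes also holds dissociation response genes, such as the heat shock chaperones Hspa1a and Dnajb1, and is called immediate early below. The listed genes, among them Fos, Jun, Egr1, Ier3 and Zfp36, summed to 9.14% of basophil UMIs in GS, 13.2% in URI, 6.64% in WT replicate 1 and 19.5% in WT replicate 2. In other cells they summed to 25254, 25141, 18897 and 39989.7 CPM in the same order, and WT replicate 2 was highest there too. Both knockout libraries lay between the WT libraries. Single basophils ranged from 1.13% to 22.3% in GS, 2.91% to 26.5% in URI, and 1.18% to 15.5% and 4.97% to 33.4% in WT.

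Between the 2 WT libraries, some groups of genes stood apart and others did not. With a pseudocount of 10 CPM, WT replicate 2 was over 2-fold above WT replicate 1 for 15 of 26 tested immediate early genes and 11 of 16 NF-κB response genes, against 4.92% of all 4594 tested genes. The median log2 ratio was 1.31 and 1.52 for these lists, -1.33 for the type I interferon response and -0.39 for all tested genes. Of the list of inhibitory and activating surface receptors, 6 of 13 were over 2-fold lower in WT replicate 2, and of the list of the IgE receptor and its signalling 4 of 22, against 20.9% of all genes. The median log2 ratio of the IgE list was -0.47, close to that of all tested genes, so this list as a whole did not stand apart. Fcer1a stood at 831 in GS basophils, 456 in URI basophils, and 1031 and 205 in WT basophils, and Ms4a2 at 1149 in GS basophils, 601 in URI basophils, and 1009 and 400.2 in WT basophils. Cd200r3, an activating receptor of basophils, stood at 2226 in GS basophils, 1236 in URI basophils, and 2332 and 894 in WT basophils. In all 3 of them the URI library lay between the WT libraries. Ms4a2 and Cd200r3 are part of the rule that chose the cells, so their levels are not independent of it. Ms4a2, Mcpt8 and Cd200r3 together had a median of 16 UMIs per basophil in WT replicate 1 and 4 in WT replicate 2.

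Within each library, basophils above the library's median of the immediate early sum were set beside the rest, in CPM computed without that list. Ccl4 stood at 13287 against 9206 in GS, 23850.2 against 13298 in URI, and 13765 against 7848 and 24539 against 14669.9 in WT. Ccl3, Osm and Cyp11a1 were also higher in the cells with more immediate early UMIs in 4 of 4 libraries. Il4 was lower in those cells in 4 of 4, at 228 against 544, 249 against 1057, 544 against 735 and 402 against 1174 in the same order. Few cells carry these Il4 values: 1 URI cell held 93 of 175 UMIs, and 3 cells held 67.7% in WT replicate 2. Ms4a2, Hgf and Csf2rb, the shared beta chain of the interleukin 3 and interleukin 5 receptors, were lower in 4 of 4 as well, while Il6 was higher in 2 of 4. Fcer1a was higher in those cells in 3 of 4, at 1058 against 778 in GS, 534 against 518 in URI, and 1021 against 1187 and 275 against 229.6 in WT. Some differences were small: Osm stood at 3234 against 3062 and 3487 against 3419 in WT. Hgf stood at 1631 against 1715 in WT replicate 1. The genes were picked for this comparison. Neither the share of all genes with the same direction in 4 of 4 libraries nor the depth of these cells was compared.

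**Figure D4:**
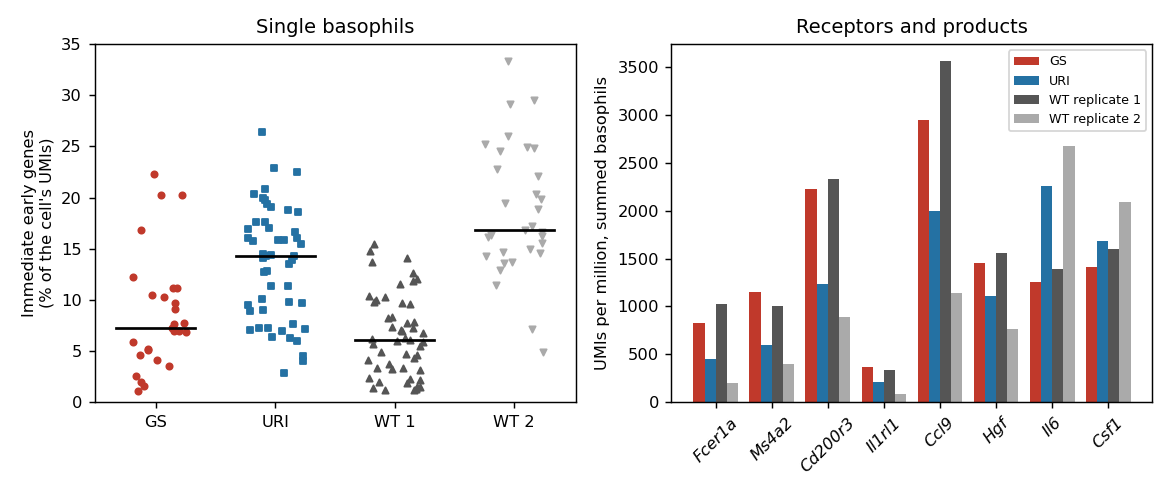
Left, the immediate early genes as a percentage of the UMIs of each basophil (points) by library, with the median as a line. Right, summed levels of receptors and products in CPM: Fcer1a, Ms4a2 and Cd200r3 are lowest in WT replicate 2, at 205, 400.2 and 894. Ms4a2 and Cd200r3 are part of the rule that chose the cells.

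The share of basophils among kept cells was 0.344% in the GS library (exact Clopper-Pearson 95% interval 0.227% to 0.50%), 0.561% in the URI library (0.418% to 0.737%), 0.601% in WT replicate 1 (0.448% to 0.790%) and 0.416% in WT replicate 2 (0.283% to 0.590%). The WT mean was 0.509% ± 0.131 (SD, n = 2). The GS value lay below both WT values, at a log2 ratio of -0.56 to their mean, and the URI value lay between them, at 0.14. The GS interval overlapped those of both WT libraries, and 1 library against 2 cannot give a one-sided exact permutation p below 0.333. After thinning to 1500 UMIs the shares were 0.417%, 0.513%, 0.711% and 0.289% in the same order, and the GS value then lay between the WT values. With no limit on Cd3e and Cd79 they were 0.51%, 0.792%, 0.731% and 0.47%, so that GS lay between the WT values and URI above both. The intervals cover counting error only.

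For the effect of the deletions on basophil transcripts, UMIs were summed over the basophils of each library and fitted with edgeR's quasi-likelihood test over 4594 genes, with p-values adjusted over all of them by the Benjamini-Hochberg method at 0.05. The 2 WT libraries gave the only residual degree of freedom, so the spread of each knockout group was taken from 2 WT pools. The test also draws each gene's spread toward that of all tested genes. A call can thus be made where the 2 WT values of a gene differ widely, as for Acod1 below. The deleted genes are given first. Glul, which encodes glutamine synthetase, stood at 108 in GS basophils, 300.3 in URI basophils, and 88.5 and 168 in WT basophils, and 22 of the 87 URI UMIs came from 1 cell. Uri1 stood at 57.8 in GS basophils, 44.9 in URI basophils, and 106 and 55.8 in WT basophils, on 8, 13, 24 and 6 UMIs. Neither value checks the labels, because the deletions were made in hepatocytes.

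In GS basophils 7 genes fell and none rose, 0.152% of the genes tested. At an unadjusted p under 0.05 there were 123 genes, and DESeq2 called none, with 11 genes at that unadjusted level. DESeq2 also called no member of any list described below, in any contrast. The GS library held 0 to 12 UMIs of each of the 7 genes. Egln3, a prolyl hydroxylase that targets hypoxia-inducible factors, stood at 7.23 in GS basophils against 296 and 83.8 in WT basophils, from 1 UMI in GS basophils, 67 in WT replicate 1 and 9 in WT replicate 2 (log2 change -4.72 ± 0.97 (SE), adjusted p = 0.00261 by edgeR's quasi-likelihood test). Its ratio to the WT sum was 0.0317 (95% counting interval 0.000792 to 0.182). In WT replicate 1, 24 of the 67 UMIs lay in 1 cell. Counting intervals here and below treat UMIs as independent, so they are too narrow where UMIs cluster in a few cells. Hspa1a, an inducible HSP70 chaperone, stood at 7.23 in GS basophils against 92.9 and 335 in WT basophils, with 15 of the 21 UMIs of WT replicate 1 and 25 of the 36 of WT replicate 2 in a single cell each (log2 change -4.87 ± 0.95 (SE), adjusted p = 0.00141 by edgeR's quasi-likelihood test). Its ratio was 0.0423 (95% counting interval 0.00105 to 0.245), and reads of the near-identical Hspa1b may be shared with it.

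The interferon-induced ubiquitin-like gene Isg15 had 7.23 in GS basophils against 111 and 186 in WT basophils, and 23 of 25 UMIs of WT replicate 1 lay in 1 cell (log2 change -4.32 ± 0.99 (SE), adjusted p = 0.0162 by edgeR's quasi-likelihood test). The ratio was 0.0535 (95% counting interval 0.00133 to 0.314). Tle1, a transcriptional corepressor, had no UMI in GS basophils, against 17 and 16 in the WT libraries (adjusted p = 0.0282 by edgeR's quasi-likelihood test). Against a floor of 3 counts in the GS library it was at least 4.57-fold lower. Csrnp1, a nuclear protein of the immediate early kind, stood at 86.7 in GS basophils against 137 and 856 in WT basophils (log2 change -2.73 ± 0.67 (SE), adjusted p = 0.0363 by edgeR's quasi-likelihood test), and Odc1, the first enzyme of polyamine synthesis, at 43.4 in GS basophils against 88.5 and 475 in WT basophils (log2 change -2.85 ± 0.71 (SE), adjusted p = 0.0377 by edgeR's quasi-likelihood test). Acod1, which makes itaconate in activated myeloid cells, passed as well, at 43.4 in GS basophils against 22.1 and 652 in WT basophils (log2 change -3.14 ± 0.71 (SE), adjusted p = 0.0151 by edgeR's quasi-likelihood test). The GS value of Acod1 lay between the WT values, and without WT replicate 2 its log2 change was 1.01. Without that library the log2 change was -0.60 for Csrnp1, -0.96 for Odc1 and -3.52 for Hspa1a. With no limit on Cd3e, Cd79a and Cd79b, a setting added after seeing the data, none of the 7 passed, and the log2 change was -1.18 for Egln3, -1.61 for Isg15, -1.61 for Csrnp1 and -1.43 for Odc1. Csrnp1, Odc1 and Acod1 were highest in WT replicate 2, the library with the highest immediate early sum, whose part in these calls was not tested.

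Gene groups are described by their counts, beside 37.9% of all tested genes that lay above both WT libraries in GS basophils, 24.4% that lay below both, and a median log2 change of -0.01. Of 12 tested cytokines and growth factors, 1 lay above both WT libraries and 6 below both, with a median log2 change of -0.81, and none passed (3 at an unadjusted p under 0.05). Il4 stood at 354 in GS basophils against 597 and 605 in WT basophils (log2 change -0.91 ± 0.61 (SE), and -0.59 with a marker sum of at least 3, which keeps 37 of the 65 Il4 UMIs of WT replicate 2), and Il6 at 1250.2 in GS basophils against 1389.5 and 2671 in WT basophils (-0.91 ± 0.85 (SE)). Lif, leukemia inhibitory factor, stood at 28.9 in GS basophils against 173 and 74.5 in WT basophils (-2.22 ± 0.77 (SE)). Of 17 tested granule genes, 7 lay above both WT libraries and 5 below both, with a median log2 change of 0, and none passed (2 at an unadjusted p under 0.05). These counts include Mcpt8, which is part of the rule that chose the cells. Prss34 stood at 491 in GS basophils against 1128 and 2764 in WT basophils (-2.21 ± 0.85 (SE)), and Srgn, the proteoglycan serglycin that packs granule proteases, at 4639.6 in GS basophils against 4859 and 6776 in WT basophils (-0.51 ± 1.23 (SE)). For Prss34 the highest cell alone held 164 and 273 UMIs of the WT libraries.

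Of 9 tested histamine and lipid mediator genes, 3 lay above both WT libraries and 5 below both, with a median log2 change of -0.48, and none passed (0 at an unadjusted p under 0.05). Alox5, 5-lipoxygenase, stood at 571 in GS basophils against 1182 and 745 in WT basophils (-0.87 ± 0.66 (SE)), Hdc at 2789.5 in GS basophils against 3124 and 3788 in WT basophils (-0.48 ± 1.00 (SE)) and Mboat7, which acylates lysophosphatidylinositol, at 383 in GS basophils against 535 and 475 in WT basophils (-0.54 ± 0.58 (SE)). Of 22 tested genes of the IgE receptor and its signalling, 7 lay above both WT libraries and 5 below both, with a median log2 change of -0.07, and none passed (0 at an unadjusted p under 0.05). Itpr2, a calcium channel of the endoplasmic reticulum, stood at 188 in GS basophils against 102 and 55.8 in WT basophils (1.09 ± 0.57 (SE)), Stim1, a calcium sensor of that compartment, at 166 in GS basophils against 84.1 and 93.1 in WT basophils (0.81 ± 0.58 (SE)) and the adaptor Lat at 181 in GS basophils against 239 and 269.9 in WT basophils (-0.63 ± 0.57 (SE)). With no limit on Cd3e and Cd79, the log2 change of Lat was 0.47. Of 7 tested chemokines, 0 lay above both WT libraries and 0 below both, with a median log2 change of -0.49, and none passed (2 at an unadjusted p under 0.05).

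Of 26 tested immediate early genes, 4 lay above both WT libraries and 7 below both, with a median log2 change of -0.76, and 1 passed (3 at an unadjusted p under 0.05). The gene that passed was Hspa1a, a heat shock chaperone on this list. Dnajb1, an HSP40 chaperone, stood at 383 in GS basophils against 509 and 1405 in WT basophils (-1.54 ± 0.69 (SE)) and Btg2 at 1445 in GS basophils against 1708 and 3193 in WT basophils (-0.97 ± 0.91 (SE)). Of 12 tested genes of glutamine and glutamate handling, 2 lay above both WT libraries and 5 below both, with a median log2 change of -0.41, and none passed (1 at an unadjusted p under 0.05). Slc7a5, a carrier of large neutral amino acids, stood at 195 in GS basophils against 309.8 and 800.5 in WT basophils (-1.70 ± 0.63 (SE)) and Slc38a2, a glutamine carrier, at 390.2 in GS basophils against 487 and 503 in WT basophils (-0.49 ± 0.58 (SE)). Of 8 tested genes of the URI prefoldin-like and R2TP complexes, 2 lay above both WT libraries and 2 below both, with a median log2 change of -0.20, and none passed (0 at an unadjusted p under 0.05). Pfdn5, a prefoldin subunit, stood at 275 in GS basophils against 173 and 93.1 in WT basophils (0.90 ± 0.55 (SE)) and Polr2e, an RNA polymerase subunit found in the complex, at 181 in GS basophils against 124 and 102 in WT basophils (0.55 ± 0.56 (SE)).

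In the other 10 lists, the numbers above and below both WT libraries in GS basophils, with the median log2 change, were 5 and 1 of 13 inhibitory and activating receptors (0.22), 10 and 5 of 22 cytokine receptors (0.19), 4 and 6 of 24 migration and adhesion genes (0.00089), 6 and 5 of 17 lineage transcription factors (-0.06), 6 and 2 of 8 steroid and cholesterol genes (0.28), 3 and 4 of 16 NF-κB response genes (-0.88), 3 and 1 of 13 type I interferon response genes (-0.39), 0 and 0 of 4 MHC class II and costimulation genes (-0.08), 2 and 0 of 4 cell cycle genes (0.18) and 4 and 4 of 13 survival and apoptosis genes (-0.16). Isg15 was the only gene of these lists to pass.

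In URI basophils Ccl5 and Phlda1 rose (0.0435% of the 4594 genes tested) and Gstp3 fell (0.0218%), together 0.0653%. Unadjusted p-values were under 0.05 for 87 genes, and DESeq2 called none, with 10 at that level. Ccl5 stood at 407 in URI basophils against 26.6 and 83.8 in WT basophils (log2 change 3.05 ± 0.56 (SE), adjusted p = 0.000275 by edgeR's quasi-likelihood test). Of its 118 UMIs in the URI library, 103 lay in 1 cell, which also held 7 UMIs of Ncr1, 13 of Nkg7, 8 of Prf1 and 2 of Eomes, genes of NK cells, beside 33 of Gata2 and 17 of Cd200r3. With 12686 UMIs that cell was the deepest basophil of the library, and with the highest cell of each gene left out Ccl5 stood at 51.8 in the URI library and no gene passed in this contrast. Barcodes of at most 100 UMIs, which hold free RNA, had Ccl5 at 2705 to 3576 CPM over the 4 libraries, and the part of free RNA or of an NK cell in this value was not tested.

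Phlda1, a pleckstrin-like protein induced by stimulation, stood at 179 in URI basophils against 13.3 and 27.9 in WT basophils, from 52 UMIs in 4 cells of the URI library, against 3 UMIs in each WT library (log2 change 3.30 ± 0.68 (SE), adjusted p = 0.0029 by edgeR's quasi-likelihood test). Its ratio to the WT sum was 9.97 (95% counting interval 4.29 to 28.4). With 22 of the 52 UMIs in 1 cell, this interval is too narrow. Gstp3, a glutathione S-transferase of the pi class, stood at 41.4 in URI basophils against 115 and 437 in WT basophils (log2 change -2.73 ± 0.64 (SE), adjusted p = 0.0352 by edgeR's quasi-likelihood test), and belongs to a family of near-identical genes whose probes may be shared. Without WT replicate 2 its log2 change was -1.26. For Phlda1 the log2 change was 0.96 with no Gata2 requirement, and neither gene passed in that setting. Beside these, 24.8% of all tested genes lay above both WT libraries in URI basophils and 27.4% below both, and their median log2 change was -0.03.

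Of 12 tested cytokines and growth factors, 4 lay above both WT libraries and 0 below both, with a median log2 change of -0.00187, and none passed (2 at an unadjusted p under 0.05). Lif stood at 473 in URI basophils against 173 and 74.5 in WT basophils, which missed the threshold (adjusted p = 0.131, edgeR), and 76 of its 137 URI UMIs in 1 cell. Osm stood at 4332 in URI basophils against 2938 and 2783 in WT basophils (log2 change 0.60 ± 0.96 (SE)) and Tgfb1 at 379.7 in URI basophils against 309.8 and 344 in WT basophils (0.22 ± 0.53 (SE)). Of 7 tested chemokines, 4 lay above both WT libraries and 0 below both, with a median log2 change of 0.43, and 1 passed (2 at an unadjusted p under 0.05). The gene that passed was Ccl5, and Ccl3 stood at 28625 in URI basophils against 16033 and 24665 in WT basophils (0.45 ± 2.07 (SE)) and Ccl6 at 2741 in URI basophils against 2677 and 1517 in WT basophils (0.43 ± 0.85 (SE)). Of 17 tested granule genes, 5 lay above both WT libraries and 4 below both, with a median log2 change of 0.02, and none passed (3 at an unadjusted p under 0.05). Mcpt8, part of the rule that chose the cells, is among the granule genes counted. Cd63 stood at 935 in URI basophils against 1071 and 1136 in WT basophils (-0.25 ± 0.68 (SE)). With no limit on Cd3e, Cd79a and Cd79b, a setting added after seeing the data, the log2 changes of Ccl5, Ccl3, Ccl6 and Tgfb1 in URI against WT were -0.0503, -0.0782, -0.23 and -0.30. Tpsb2 and Tpsab1 lay above both WT libraries through the single cell with mast cell transcripts.

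Of 9 tested histamine and lipid mediator genes, 1 lay above both WT libraries and 4 below both, with a median log2 change of -0.15, and none passed (0 at an unadjusted p under 0.05). Hdc stood at 2909.8 in URI basophils against 3124 and 3788 in WT basophils (-0.27 ± 0.99 (SE)), Mboat7 at 387 in URI basophils against 535 and 475 in WT basophils (-0.37 ± 0.56 (SE)) and Alox5ap at 2282 in URI basophils against 2328 and 2411 in WT basophils (-0.06 ± 0.89 (SE)). Of 22 tested genes of the IgE receptor and its signalling, 2 lay above both WT libraries and 6 below both, with a median log2 change of -0.08, and none passed (0 at an unadjusted p under 0.05). The kinases Fyn and Lyn stood at 324 in URI basophils against 279 and 177 in WT basophils (0.53 ± 0.52 (SE)) and at 186 in URI basophils against 155 and 112 in WT basophils (0.50 ± 0.53 (SE)), and Orai1, a calcium channel of the plasma membrane, at 131 in URI basophils against 186 and 177 in WT basophils (-0.44 ± 0.55 (SE)). Of 26 tested immediate early genes, 5 lay above both WT libraries and 2 below both, with a median log2 change of -0.05, and none passed (1 at an unadjusted p under 0.05). Hspa1a stood at 58.7 in URI basophils against 92.9 and 335 in WT basophils (-1.82 ± 0.59 (SE)), Egr3 at 966 in URI basophils against 571 and 652 in WT basophils (0.65 ± 0.60 (SE)) and Dusp1, a phosphatase of MAP kinases, at 6921 in URI basophils against 3151 and 5854 in WT basophils (0.56 ± 1.15 (SE)). For Egr3 the log2 change was -0.54 with no limit on Cd3e and Cd79.

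Of 12 tested genes of glutamine and glutamate handling, 5 lay above both WT libraries and 2 below both, with a median log2 change of -0.12, and none passed (1 at an unadjusted p under 0.05). Glul itself had a log2 change of 1.28 ± 0.53 (SE), Slc1a5, a glutamine carrier, stood at 162 in URI basophils against 133 and 37.2 in WT basophils (0.87 ± 0.53 (SE)) and Glud1, glutamate dehydrogenase, at 186 in URI basophils against 173 and 46.5 in WT basophils (0.73 ± 0.52 (SE)). Of 8 tested genes of the URI prefoldin-like and R2TP complexes, 1 lay above both WT libraries and 5 below both, with a median log2 change of -0.48, and none passed (0 at an unadjusted p under 0.05). Polr2e stood at 128 in URI basophils against 124 and 102 in WT basophils (0.20 ± 0.54 (SE)), and at a log2 change of -0.0769 with no limit on Cd3e and Cd79. For the remaining lists the numbers above and below both WT libraries in URI basophils, with the median log2 change, were 1 and 3 of 13 inhibitory and activating receptors (-0.25), 3 and 4 of 22 cytokine receptors (0.04), 7 and 5 of 24 migration and adhesion genes (0.08), 3 and 4 of 17 lineage transcription factors (-0.09), 1 and 4 of 8 steroid and cholesterol genes (-0.11), 3 and 1 of 16 NF-κB response genes (-0.18), 0 and 4 of 13 type I interferon response genes (-1.15), 0 and 1 of 4 MHC class II and costimulation genes (0.06), 1 and 2 of 4 cell cycle genes (0.12) and 4 and 3 of 13 survival and apoptosis genes (0.02). None of these passed.

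The URI and GS libraries are 1 pool each, and their contrast rests on the spread of the 2 WT pools, shared over genes. Egln3 and Lif passed with the higher level in URI. They were 0.0435% of the genes tested. Unadjusted p-values were under 0.05 for 106 genes, and DESeq2 called none, with 11 at that level. Egln3 stood at 345 in URI basophils against 7.23 in GS basophils (log2 change 5.60 ± 0.98 (SE), adjusted p = 5.18e-05 by edgeR's quasi-likelihood test), from 100 UMIs in 15 of 51 cells and 1 UMI in 27 cells, a ratio of 47.8 (95% counting interval 8.38 to 1905). Egln3 lies at chr12:54178981-54203860 and Lif at chr11:4257557-4272514 (GRCm38, GENCODE M21). Both are protein-coding genes. For Egln3 the WT libraries, at 296 and 83.8, lay between. Lif stood at 473 in URI basophils against 28.9 in GS basophils (log2 change 4.15 ± 0.78 (SE), adjusted p = 0.000296 by edgeR's quasi-likelihood test), from 137 UMIs in 5 cells against 4 in 1 cell. The cell with most Lif and the cell with most Egln3 in the URI library were the same barcode, with 76 and 29 UMIs. With no limit on Cd3e and Cd79, neither passed: the log2 change was 1.71 for Egln3 and 2.94 for Lif (adjusted p = 0.999 and 0.055, edgeR). All 3 contrasts share libraries, so they are not independent of each other.

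Over all tested genes, 8.73% were over 2-fold higher and 7.01% over 2-fold lower in URI than in GS basophils. Of the 12 tested glutamine and glutamate genes, 4 were over 2-fold higher and 1 lower (median log2 change 0.81, beside 0.00141 for all genes), and none passed, with 3 at an unadjusted p under 0.05. Glul stood at 300.3 in URI basophils against 108 in GS basophils (1.61 ± 0.65 (SE)), Slc7a5 at 483 in URI basophils against 195 in GS basophils (1.46 ± 0.68 (SE)) and Glud1 at 186 in URI basophils against 79.5 in GS basophils (1.37 ± 0.66 (SE)). Among immediate early genes 5 of 26 were over 2-fold higher and 1 lower, with Btg2 at 2734 in URI basophils against 1445 in GS basophils (1.07 ± 1.02 (SE)) and Dnajb1 at 866 in URI basophils against 383 in GS basophils (1.33 ± 0.75 (SE)). Prss34 stood at 1349.6 in URI basophils against 491 in GS basophils (1.61 ± 0.90 (SE)), and with the highest cell of each gene left out its log2 change was -0.25. Of the type I interferon genes 1 of 13 was over 2-fold higher and 6 lower.

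**Figure D5:**
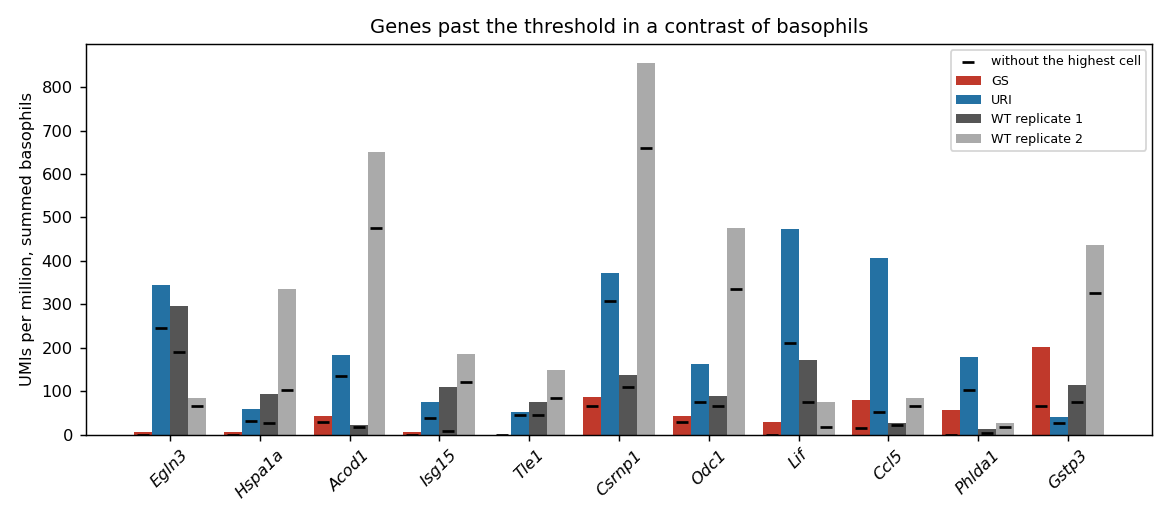
Level of the 11 genes that passed in at least 1 contrast, in CPM of the summed basophils (bars, by library), with the level after the cell with the most UMIs of that gene was left out (black marks). Ccl5 in the URI library is 407 with that cell and is 51.8 without it, and Acod1, Csrnp1 and Odc1 are highest in WT replicate 2.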

How the data were processed

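Single-cell libraries of sorted CD45+ liver cells were analysed from the raw UMI count matrices as deposited. Per the submitters' processing notes and the file headers, the authors made these counts with Cell Ranger 8.0.0 against mm10, and all barcodes were kept. The probe set version is not given in the sources used here. Cells had at least 500 UMIs, 250 genes and at most 10% mitochondrial UMIs. Basophils were chosen on raw UMIs, as stated above. Scrublet in scanpy 1.11.5 was run in each library, and since its automatic threshold of 0.604 marked no cell of WT replicate 1, the median threshold of the other libraries, 0.188, was used there. UMIs of the basophils were summed in each library and fitted with edgeR 4.0.16 (quasi-likelihood test, TMM scaling, 4 libraries in 3 groups, 4594 genes after a low-count filter, common dispersion 0.1044), and DESeq2 1.42.0 was an alternative. The fit was also run on simulated counts as a self-test of the code, with no outcome given here. CPM values were computed from these counts. Shares of cells have exact 95% intervals, and the floor for a count of 0 is 3 counts. Barcodes of at most 100 UMIs served as free RNA. Promoters are from RefSeq (GRCm38.p6).

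Named genes were the genes of the rule, the 25 identity genes, every gene past an adjusted p of 0.05, and, for 8 of 18 lists, at most 3 members per contrast with the largest change among those averaging at least 100 CPM whose knockout value lay outside both WT values (for URI against GS, over 2-fold apart). Other members are given by their levels. One item that the rule would name is not reported here. The members and lists were chosen with earlier results of these data known. Each library is a pool of 5 mice. The 2 WT pools are the only replicates behind the p-values, and spread is shared over all tested genes.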

Additional observations from a re-analysis of the deposited data

How the results depend on the processing

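The calls were sensitive to the processing. Under DESeq2 the number of called genes was 0 for GS against WT, 0 for URI against WT and 0 for URI against GS, and with no Gata2 requirement it was 0, 0 and 0. With no low-count filter it was 2 for GS against WT and 6 for URI against WT, and with the other knockout left out of the fit it was 6 for URI against WT. The next alternatives were chosen after seeing the data. With the highest cell of each gene left out the number was 3 for GS against WT and 0 for URI against WT, and with no limit on Cd3e, Cd79a and Cd79b it was 0 and 5. The cause was not tested. That last setting also reversed log2 changes: for URI against WT, Ccl3 became -0.0782, Ccl5 -0.0503, Ccl6 -0.23, Egr3 -0.54, Polr2e -0.0769 and Tgfb1 -0.30, for GS against WT, Lat became 0.47, and for URI against GS, Ccl5 became -1.22. Ccl5 for URI against GS was -0.29 with no Gata2 requirement, and Prss34 was -0.25 with the highest cell left out. Leaving out 1 WT replicate gives values with no test. Acod1 for GS against WT ranged from -4.23 to 1.01, and the log2 ratio of the basophil share ranged from -0.81 to -0.27 for GS and from -0.10 to 0.43 for URI. In cells thinned to 1500 UMIs, Il4 was detected in 34.6% of GS, 26% of URI, and 42% and 15.4% of WT basophils, Il13 in 12% of URI and 18% of WT replicate 1 basophils, and Il6 in 54% of WT replicate 1 basophils. For the 12 calls, 78 of 130 tested alternatives kept the call. Over 721 alternatives for called and other named genes, most of which passed no threshold in the first place, 11 reversed direction. Both counts of alternatives include leaving out Scrublet doublets. That setting removed no basophil and repeated the main fit, so it could not lose a call or reverse a direction. No paired analysis was possible because the knockout groups share only replicate number 1 with WT. Depth limits all of this: 27 to 51 cells a library leave many genes at a few UMIs.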
